A study of Mus musculus with 16 samples.

Results

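Mylk, which encodes myosin light chain kinase, was examined in mouse pancreatic islets together with 9 genes of the smooth-muscle contractile apparatus: Myl9, Acta2, Tagln, Cnn1, Cald1, Tpm1, Tpm2, Myh11 and Des. The 10 genes were taken by symbol from the platform annotation, out of 18193 genes with a probe set of their own, and 26 of 34945 such probe sets belong to them. Where a gene has several probe sets, the brightest over the 16 arrays stands for it. Mylk was picked because a large difference between the groups was already known in these arrays, so its values are given as a description with no test. The other 9 were picked by name, as partners of the kinase in smooth muscle.

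RNA from 16 islet preparations was hybridised to 1 Affymetrix Mouse430_2 array each. The 8 mutant preparations came from RIPcreER; Insm1flox/lacZ mice and the 8 controls from RIPcreER; Insm1flox/+ mice, all of a mixed C57BL/6, 129/ola and CBA/J background. Insm1 encodes a transcription factor with zinc fingers that endocrine cells express, and RIPcreER is a tamoxifen-inducible recombinase driven by the rat insulin promoter, so deletion was directed to beta cells. Every animal of both groups was given 25 mg tamoxifen, released over 21 days, when 4 to 5 weeks old, and islets were isolated at an age of 8 to 12 weeks. The floxed allele can therefore be deleted in controls as well, which keep 1 wild-type allele, and the lacZ allele of the mutants is present in all their cells, not in beta cells alone. Values are log2 signals of probe sets, and a difference is mutant minus control with n = 8 per group. Their precision is limited by the number of arrays. The signal of Insm1 averaged 11.26 ± 0.23 (SD) over control and 11.02 ± 0.22 over mutant arrays. It was lower in 5 of 8 pairs, by −0.25 ± 0.11 (SE) on average (adjusted p = 0.182 by limma). No source used here says whether its probe set lies in the deleted part, so the value does not check the labels.

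In smooth muscle, calcium bound to calmodulin activates myosin light chain kinase, which phosphorylates the regulatory light chain encoded by Myl9 and so lets the myosin encoded by Myh11 pull on actin filaments built from the product of Acta2. Tropomyosins, caldesmon and calponin lie along those filaments, and desmin forms the intermediate filaments that link them. In islets such genes are known from mural cells of blood vessels and from stellate cells. Mylk is also made in non-muscle cells, from a gene that gives rise to a long kinase, a short kinase and telokin, and it is commonly listed among genes that beta cells keep low. In bulk islet RNA, a change in the number of cells of a type and a change in RNA per cell cannot be told apart.

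Many smooth-muscle genes carry the CArG box, the element bound by serum response factor, which consists of CC, 6 bases of A or T, and GG. RefSeq promoter windows on GRCm38.p6, running from 250 bases before to 50 bases after a gene's start, were matched by symbol for 8 of the 10 genes, with 9 windows in all. The bases before the start are shown for Acta2 and Myl9, whose signals varied together across control arrays, and for Mylk, whose relations with them did not pass the same test. Capitals mark CArG boxes and boxes in which 1 of the 6 core bases is G or C.
Myl9: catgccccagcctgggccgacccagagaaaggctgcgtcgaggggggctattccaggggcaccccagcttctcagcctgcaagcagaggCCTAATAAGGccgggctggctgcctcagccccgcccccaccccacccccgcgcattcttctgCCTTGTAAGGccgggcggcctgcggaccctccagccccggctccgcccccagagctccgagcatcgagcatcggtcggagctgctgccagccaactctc
Acta2: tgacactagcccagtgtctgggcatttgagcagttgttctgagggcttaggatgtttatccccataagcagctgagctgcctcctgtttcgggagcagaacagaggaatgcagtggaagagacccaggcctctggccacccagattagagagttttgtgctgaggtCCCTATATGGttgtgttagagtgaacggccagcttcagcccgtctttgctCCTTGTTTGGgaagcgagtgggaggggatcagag
Mylk: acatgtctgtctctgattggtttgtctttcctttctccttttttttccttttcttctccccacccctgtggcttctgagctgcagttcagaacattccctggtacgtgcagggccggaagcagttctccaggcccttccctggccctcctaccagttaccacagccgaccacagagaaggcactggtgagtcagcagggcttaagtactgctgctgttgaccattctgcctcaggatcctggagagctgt
The Myl9 sequence is chr2:156775214-156775463 on the plus strand, that of Acta2 is chr19:34255374-34255623 on the minus strand and that of Mylk is chr16:34784700-34784949 on the plus strand. The CArG pattern is its own reverse complement, so a search of 1 strand covers both. An exact CArG box was found in 1 of the 9 windows, that of Myl9, as CCTAATAAGG from 161 bases before the start. Of all 32851 windows in the table, 1.63% hold one. The search with 1 changed core base was added after the exact search. It found CCTTGTAAGG from 99 bases before the start of Myl9, and CCCTATATGG and CCTTGTTTGG from 84 and 34 bases before that of Acta2, while 8.5% of all windows hold such a box. Neither form of these letters is in the windows of Mylk, Cnn1, Cald1, Tpm1, Tpm2 and Des. Tpm2 and Tagln also varied with Acta2 in controls, yet Tpm2 holds no box and Tagln has no window. Whether boxes go with such variation was not tested. Mylk has 1 window here, and other starts of that gene were not searched. A match is a description of the sequence, not of binding.

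Mylk was 4.07-fold higher in mutant islets. Its brightest probe set ran from 7.63 over a median of 7.87 to 8.30 in controls, and from 9.77 over a median of 9.91 to 10.16 in mutants. Every mutant array lay above every control array, and the spread within each group was small against the distance between them. The means were 7.92 ± 0.20 (SD, n = 8) and 9.94 ± 0.15, a difference of 2.02 ± 0.09 (SE). Across the 8 pairs of same-numbered arrays the difference ran only from 1.80 to 2.23. Groups that do not overlap were found for 2.29% of all genes, with mutants above controls for 1.19% and below them for 1.09%, and Mylk was the only 1 of the 10 genes among them.

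The probe sets of Mylk did not all show this. The second read 6.95 ± 0.15 on control and 8.86 ± 0.17 on mutant arrays, which differ by 1.90 ± 0.08. The third read 6.41 ± 0.13 and 6.50 ± 0.15, a difference of 0.09 ± 0.07, and the mutant was higher in 5 of 8 pairs. Its mean over all arrays, 6.45, lay close to the array medians of 6.29 to 6.35, where differences may be compressed. No source used here gives the part of the transcript that each probe set reads. With the mean of all 3 in place of the brightest, the difference was 1.34.

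The partners of the kinase were not higher as a group. Of the 9 other genes, 1 was called higher and 2 were called lower in mutants, where called means an adjusted p under 0.05 by limma with Benjamini-Hochberg adjustment over all genes. Over all genes 8.76% were called, 4.1% higher and 4.66% lower. The median difference of the 9 genes was −0.28, against −0.01 over all genes. Replicate numbers were taken to pair the arrays of both groups, which was inferred from these data and is not stated in the labels. With these pairs as a block 6 of the 9 were called, 1 higher and 5 lower, beside 17.6% of all genes (7.88% higher and 9.71% lower).

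**Figure D1:**
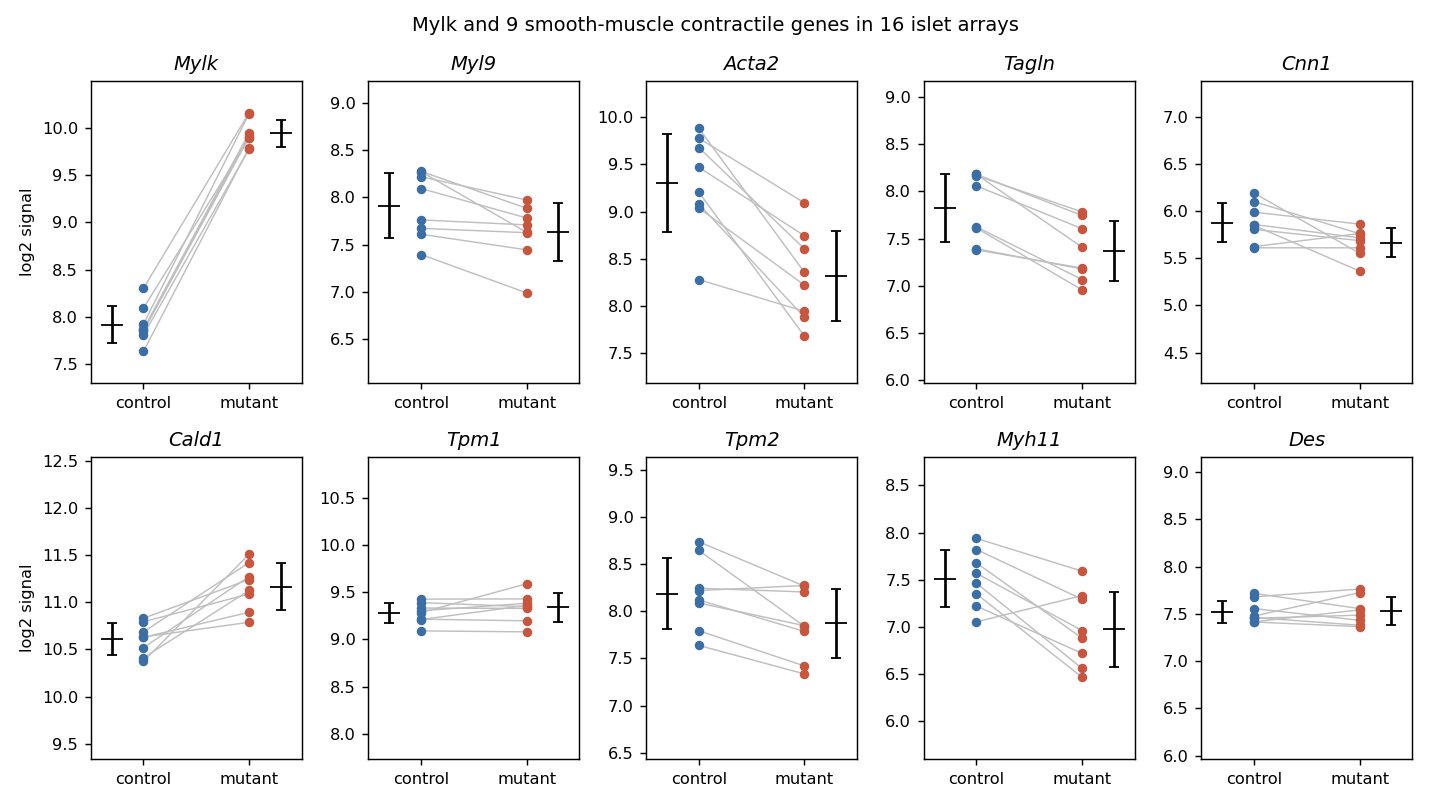
Log2 signal of the brightest probe set of each gene on the 8 control and 8 mutant arrays, with grey lines joining arrays of the same replicate number and black bars showing the group mean with its SD; every panel spans the same range of 3.2 log2 units. Mylk has a control mean of 7.92 and a mutant mean of 9.94 without overlap, those of Acta2 are 9.30 and 8.32, and those of Des 7.52 and 7.53.

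Acta2, the alpha-actin of smooth muscle and the usual marker of activated stellate cells, fell. Control arrays ran from 8.28 over a median of 9.34 to 9.88, and mutant arrays from 7.68 over a median of 8.29 to 9.09. The groups overlapped, with 4 mutant arrays inside the control range, but the mutant was lower in 8 of 8 pairs. The means were 9.30 ± 0.52 and 8.32 ± 0.48, a 1.98-fold fall (−0.98 ± 0.23, adjusted p = 0.0105 by limma, and 0.000352 with the replicate block). The probe set used carries the suffix for possible matches to more than 1 transcript. The other smooth-muscle actin gene, Actg2, differed by −0.13 ± 0.07 (adjusted p = 0.323), and the skeletal and cardiac actin genes Acta1 and Actc1 by −0.01 ± 0.06 and −0.11 ± 0.06.

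Myh11, the heavy chain of smooth-muscle myosin, was called lower with an adjusted p just under the threshold. It ran from 7.05 over a median of 7.52 to 7.94 in controls and from 6.47 over a median of 6.92 to 7.59 in mutants. The difference was −0.53 ± 0.16, with the mutant lower in 7 of 8 pairs (adjusted p = 0.0499 by limma, and 0.0086 with the replicate block). Leaving out 1 array ended the call for 11 of the 16 (control replicates 2, 3, 4, 6, 7 and 8, mutant replicates 2, 4, 5, 6 and 7), with adjusted p up to 0.0971. The pair of replicate 1 was the exception in direction, at 7.05 in the control and 7.33 in the mutant.

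Myl9, the regulatory light chain that the kinase phosphorylates, was not called without the pairs. Its signal ran from 7.39 over a median of 7.93 to 8.27 in controls and from 6.99 over a median of 7.67 to 7.97 in mutants, so that 7 of 8 mutant arrays lay within the control range. The difference was −0.28 ± 0.15 (adjusted p = 0.303 by limma). It was nevertheless below 0 in 8 of 8 pairs, between −0.64 and −0.05, and the replicate block made it a call (adjusted p = 0.0158).

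Tagln, which encodes the actin-binding protein transgelin, behaved likewise. Its range was 7.38 to 8.18 in controls, with a median of 7.84, and 6.96 to 7.78 in mutants, with a median of 7.30. The difference of −0.46 ± 0.16 was not called by limma (adjusted p = 0.0821), though the mutant was lower in 8 of 8 pairs and the replicate block called it (adjusted p = 0.00109). Leaving out control replicate 1, the control with the lowest Acta2, also gave a call (−0.52, adjusted p = 0.0471).

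Cnn1, calponin 1, lay at means of 5.88 ± 0.21 and 5.66 ± 0.15, below the lowest array median of 6.29, where background may compress differences. Its difference of −0.21 ± 0.09 was called neither by limma alone (adjusted p = 0.165) nor with the replicate block (adjusted p = 0.114).

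Cald1, which encodes caldesmon in muscle and non-muscle forms, was the gene among these 9 that rose. Controls ran from 10.37 over a median of 10.63 to 10.83, and mutants from 10.79 over a median of 11.18 to 11.51. A single mutant array, replicate 5, lay inside the control range. The gene was 1.47-fold higher in mutants (0.56 ± 0.10, adjusted p = 0.00159 by limma, and 0.00277 with the replicate block), in 8 of 8 pairs. As for Acta2, the probe set used carries the suffix for possible matches to more than 1 transcript, and no other of Cald1 was called. The next 2 probe sets by brightness differed by 0.46 ± 0.18 and 0.67 ± 0.26 (adjusted p = 0.148 and 0.143 by limma over all probe sets), and the 2 dimmest, both below 6.29, by −0.02 ± 0.07 and 0.13 ± 0.09.

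The tropomyosins, which wind along actin filaments, differed from each other in direction without a call. Tpm2 ran from 7.64 to 8.74 in controls and from 7.34 to 8.27 in mutants, with medians of 8.17 and 7.84. Its difference was −0.31 ± 0.17 (adjusted p = 0.313 by limma, but 0.0245 with the replicate block), and a dimmer probe set gave −0.33 ± 0.16. Tpm1, which is also expressed in non-muscle cells, read 9.28 ± 0.11 and 9.34 ± 0.15, a difference of 0.06 (95% interval −0.09 to 0.20), while a probe set of almost the same brightness gave −0.13 ± 0.07.

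Des, desmin, read 7.41 to 7.72 in controls, with a median of 7.47, and 7.37 to 7.76 in mutants, with a median of 7.51. The difference was 0.01 (95% interval −0.14 to 0.16), and the mutant was higher in 4 of 8 pairs. Its second probe set differed by −0.01 ± 0.08. The falls of Acta2 and Myh11 rest on 1 probe set each, since their others had mean signals of 4.88 or less.

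**Figure D2:**
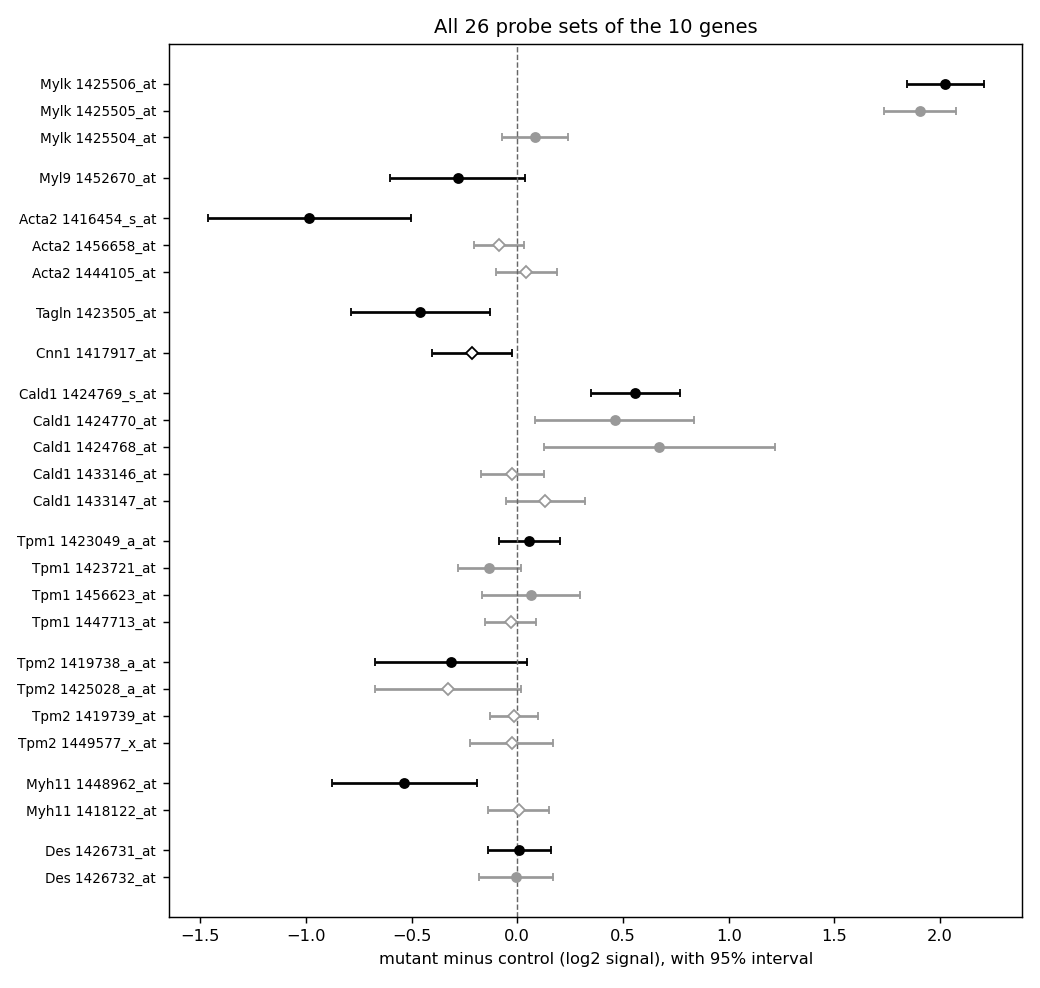
Mutant minus control difference of each of the 26 probe sets, with its 95% interval from limma; black marks the probe set used for the gene, grey the others, and open diamonds those with a mean below the lowest array median of 6.29. Of the 26, 10 are open, and 2 of the 3 Mylk probe sets lie near 2 while the third lies at 0.09.

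Myl9, Tagln and Tpm2 varied with Acta2 from array to array in controls, and Tagln also in mutants. Within each group of 8 arrays, 34 relations were computed, of each gene with Mylk and with Acta2, and 4 passed an adjusted p of 0.05 by exact permutation of all pairings. In controls, Acta2 correlated with Myl9 (r = 0.952, rho = 0.905, adjusted exact p = 0.00394 and 0.0388), Tpm2 (r = 0.906, rho = 0.952, adjusted exact p = 0.00394 and 0.0194) and Tagln (r = 0.894, rho = 0.929, adjusted exact p = 0.00569 and 0.0253). Without the 2 arrays farthest from the median of Acta2, r was 0.974, 0.847 and 0.96. In mutants, Acta2 correlated with Tagln (r = 0.955, rho = 0.976, adjusted exact p = 0.00394 and 0.0135, and r = 0.926 without 2 arrays). Its relations with Myl9 and Tpm2 there had r = 0.656 and 0.713 (adjusted exact p = 0.232 and 0.197), and the difference between the groups was not tested. Acta2 with Cnn1 and Myh11 in controls (r = 0.815 and 0.818) and with Tpm1 in mutants (r = 0.826) fell just short. Their adjusted exact p was 0.0557 for r, and 0.19, 0.208 and 0.326 for rho. With 8 arrays, much weaker relations can be missed after adjustment.

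None of the 18 relations with Mylk passed, and whether they differ from those with Acta2 was not tested. In controls r lay between 0.106, for Des, and 0.69, for Cnn1 (adjusted exact p = 0.833 and 0.197), and in mutants between −0.433, for Myh11, and 0.594, for Myl9 (adjusted exact p = 0.438 and 0.296). The relation with Cnn1 in controls had rho = 0.643 (adjusted exact p = 0.297), and r was 0.051 without 2 arrays. Mylk against Acta2 gave r = 0.413 in controls and 0.005 in mutants (adjusted exact p = 0.445 and 0.991). Without 2 arrays, the values of r in mutants were 0.578 with Acta2, 0.742 with Myl9, 0.731 with Cald1 and 0.476 with Tagln, against 0.005, 0.594, 0.499 and 0.13 over all 8, so they move with single arrays. The plot against Acta2 shows mutant replicate 4, with the lowest Acta2 of all arrays (7.68), at a Mylk signal of 10.15, next to the highest.

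**Figure D3:**
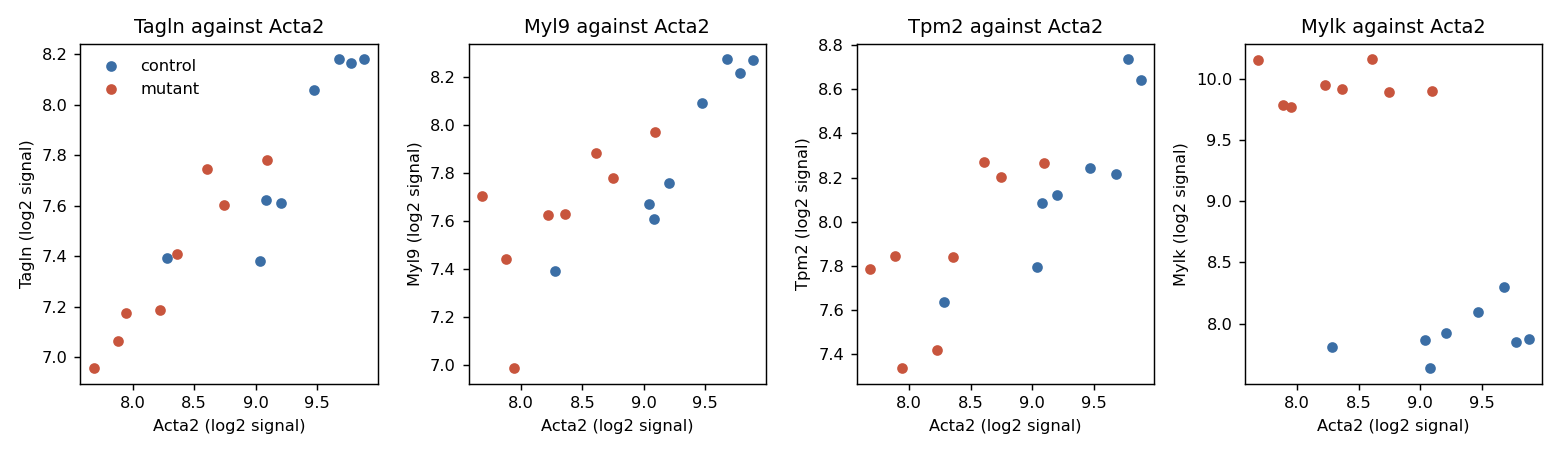
Log2 signals of Tagln, Myl9, Tpm2 and Mylk plotted against that of Acta2, 1 point per array, for 8 control (blue) and 8 mutant (red) islet preparations. Tagln lies along a line with Acta2 in both groups (r = 0.894 and 0.955), whereas Mylk forms a cloud for each group, centred at 7.92 and 9.94.

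Non-muscle counterparts of these genes were measured to set the contractile set beside the cytoskeleton of other cells. Of 17, 3 rose and 0 fell, beside 4.1% and 4.66% of all genes (7.88% and 9.71% with the block). The median difference was 0.14, against −0.01 for all genes. The genes that rose include both non-muscle regulatory light chains, which myosin light chain kinase also phosphorylates. Myl12b went from 11.96 ± 0.05 to 12.34 ± 0.06 with no overlap between the groups (0.39 ± 0.04, adjusted p = 8.18e-06 by limma). Myl12a went from 11.62 ± 0.14 to 12.05 ± 0.15 (0.43 ± 0.07, adjusted p = 0.00116), and both were higher in 8 of 8 pairs. Actn4, a non-muscle alpha-actinin, differed by 0.16 ± 0.05 (adjusted p = 0.0396). Median centring, which shifted it to 0.14, ended that call (adjusted p = 0.0936), as did omitting any 1 of control replicates 2, 4, 6, 7 and 8 or mutant replicates 1, 2, 3, 4, 5 and 8 (adjusted p up to 0.0812). With the replicate block 4 were called, all higher, among them Cnn3, a non-muscle calponin (0.26 ± 0.08, adjusted p = 0.0511 without and 0.0106 with it). The non-muscle myosin heavy chain gene Myh9 differed by 0.14 ± 0.07 (adjusted p = 0.286).

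Among 22 measured regulators of light chain phosphorylation, 0 rose and 1 fell (4.1% and 4.66% of all genes, or 7.88% and 9.71% blocked). The median difference of the 22 was 0.02. By limma, 4 had an unadjusted p under 0.05, of which 1 was higher in mutants. Blocking by replicate gave 1 higher and 1 lower, and the higher was the death-associated kinase gene Dapk1 (0.32 ± 0.10, adjusted p = 0.0662 without and 0.00196 with the block). The related kinase genes Mylk2, Mylk3 and Mylk4 read below 6 in both groups, and differed by −0.05 ± 0.09, 0.00 ± 0.08 and 0.01 ± 0.06.

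Of 12 measured genes for serum response factor, its cofactors and related muscle regulators, 3 rose and 0 fell. The shares over all genes were 4.1% and 4.66% (7.88% and 9.71% with the block). Tead1, the DNA-binding partner of the Hippo effector Yap1, was 1.42-fold higher (0.51 ± 0.09, adjusted p = 0.0017 by limma). Fhl2, a LIM-domain cofactor, was 1.36-fold higher (adjusted p = 0.00448), and Mrtfb, a myocardin-related cofactor, 0.32 ± 0.07 higher on the log2 scale (adjusted p = 0.00748). Each was higher in 8 of 8 pairs. Averaging its probe sets ended the call of Mrtfb (0.13, adjusted p = 0.185), and so did omitting replicates 1 to 3 of both groups (0.30, adjusted p = 0.07). Blocking added 1 lower call, the LIM-domain gene Fhl1 (−0.21 ± 0.08, adjusted p = 0.121 unblocked and 0.0338 blocked). Srf itself differed by 0.02 ± 0.17 (adjusted p = 0.967), and Myocd, the smooth-muscle cofactor myocardin, read 4.62 ± 0.17 and 4.70 ± 0.21, far below the array medians.

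Of 21 other smooth-muscle genes, 1 rose and 1 fell, beside 4.1% and 4.66% of all genes (7.88% and 9.71% with the block). Pcp4l1, a relative of the calmodulin-binding peptide gene Pcp4, went from 5.70 ± 0.23 to 6.32 ± 0.24 with no overlap (0.62 ± 0.11, adjusted p = 0.00173 by limma). Its mean over all arrays, 6.01, was below the lowest array median of 6.29. Aoc3, an amine oxidase of vascular smooth muscle, differed by −0.29 ± 0.09 (adjusted p = 0.0462), which became −0.15 (adjusted p = 0.441) without replicates 1 to 3 of both groups. Its call also ended on omitting any 1 of control replicates 2, 3, 4, 5, 7 and 8 or mutant replicates 1, 2, 3, 4 and 7 (adjusted p up to 0.0894). The median of the list was −0.04. Lmod1, a leiomodin that nucleates actin filaments, was lower in 8 of 8 pairs and was called only with the block (−0.22 ± 0.07, adjusted p = 0.0573 unblocked and 0.0167 blocked). Of 23 genes of striated muscle, 0 were called by limma, 2 had an unadjusted p under 0.05, and Tnnc1, a troponin gene, had the lowest p (0.29 ± 0.11, adjusted p = 0.117, and 0.0446 with the replicate block).

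**Figure D4:**
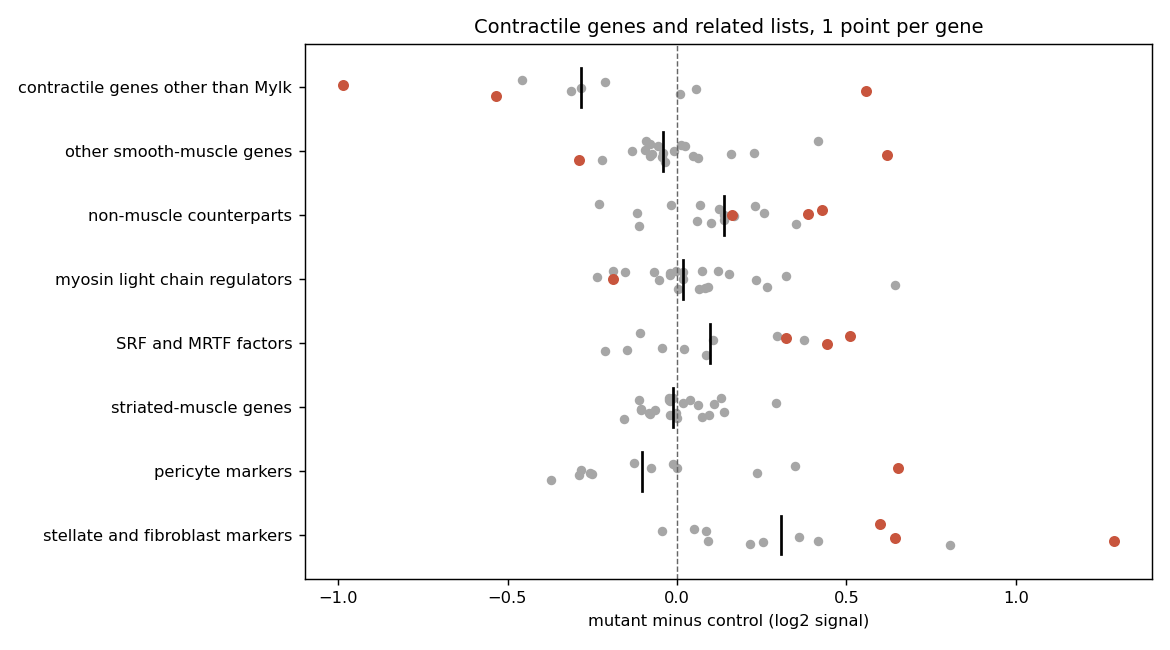
Mutant minus control difference in log2 signal, 1 point per gene, for the 9 contractile genes and 7 related lists; red points passed an adjusted p of 0.05 by limma, grey points did not, and black ticks mark the list medians. The contractile genes have the lowest median of the lists drawn (−0.28), and the stellate and fibroblast markers the highest (0.31).

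Markers of the cells that could carry these transcripts moved in different ways. By limma 4.1% of all genes were called higher and 4.66% lower, and with the block 7.88% and 9.71%. Islet endocrine markers were bright on all arrays, with a mean over 9 genes of 13.77 to 13.96 in controls and 13.62 to 13.85 in mutants. Of the 9, 3 were called lower (Pdx1, Slc30a8 and Nkx6-1), while 5 differences lay above 0 and 4 below, with a median of 0.01. The block added Ppy, a hormone gene, as higher (0.21 ± 0.07, adjusted p = 0.0971 unblocked and 0.0372 blocked). Of 12 pericyte markers, 1 was called, higher: Abcc9, a potassium channel subunit gene, by 0.65 ± 0.17 (adjusted p = 0.0212 by limma, and 0.0647 without replicates 1 to 3 of both groups). Rgs5, an abundant mural-cell transcript, had a difference of −0.37 ± 0.15 (adjusted p = 0.142, or 0.0136 blocked by replicate) and Rgs4 by −0.29 ± 0.21. With the block 4 of the 12 were called, 2 higher and 2 lower: besides Abcc9 and Rgs5 these were Kcnj8, a potassium channel gene (0.35 ± 0.12, adjusted p = 0.0797 unblocked and 0.0221 blocked), and the receptor gene Notch3 (−0.25 ± 0.08, adjusted p = 0.0535 and 0.0133). The mean of the pericyte list spanned 7.73 to 8.19 in controls and 7.68 to 8.03 in mutants. Of 10 endothelial and 6 neural and Schwann markers, 0 were called by limma, with 1 and 0 at an unadjusted p under 0.05. Of 14 immune-cell markers C1qa rose, by 0.88 ± 0.19 (adjusted p = 0.006), and of 6 duct markers Krt19 fell (−0.95 ± 0.22, adjusted p = 0.0113). The part of these cells in the differences of the contractile genes was not tested.

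Of 12 stellate and fibroblast markers, 3 rose and 0 fell, beside 4.1% and 4.66% of all genes (7.88% and 9.71% with the block). The proteoglycan gene Dcn was 2.44-fold higher (1.29 ± 0.29, adjusted p = 0.00814 by limma), the collagen gene Col1a2 1.52-fold higher (adjusted p = 0.0145) and Loxl1, a collagen cross-linking enzyme gene, 1.56-fold higher (adjusted p = 0.00458, and 0.0623 without replicates 1 to 3 of both groups). The mean signal of Loxl1 over all arrays, 6.05, was below the lowest array median of 6.29. Col3a1 differed by 0.42 ± 0.18 (adjusted p = 0.186). With the block 5 were called, all higher, adding Col1a1 (0.25 ± 0.11, adjusted p = 0.199 unblocked and 0.0244 blocked) and Lum (0.81 ± 0.26, adjusted p = 0.0627 and 0.0417). The list mean was 7.01 to 7.58 in controls and 7.28 to 8.26 in mutants, so it lay higher in mutants, in 7 of 8 pairs, while Acta2 was lower. With this mean as a covariate, the difference of Mylk was 1.95, that of Acta2 −1.07 (adjusted p = 0.0706) and that of Cald1 0.45 (adjusted p = 0.0699). As the mean itself differed between the groups, this fit can remove part of the difference between genotypes.

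The mean of 10 acinar markers moved in the same direction as Acta2. It ran from 12.50 to 14.59 in controls and from 8.999 to 14.27 in mutants, and each of the 8 mutant arrays lay below its control. By limma 0 of the 10 were called and all 10 had an unadjusted p under 0.05. All 10 were called lower with the replicate block, beside 9.71% of all genes. With the acinar mean as a covariate the differences were 2.02 for Mylk, −1.08 for Acta2 (adjusted p = 0.0167), −0.47 for Myh11 (adjusted p = 0.135) and 0.47 for Cald1 (adjusted p = 0.0125). With the replicate block as well they were 1.92, −0.51 (adjusted p = 0.0769), −0.21 (adjusted p = 0.577) and 0.34 (adjusted p = 0.291), and Myl9, Tagln and Tpm2 were at −0.20, −0.22 and −0.04 with no call. Calls were also fewer over all genes in that fit, 852 of 18193 against 3200 with the block alone. The difference of Mylk was about as large in both fits, while that of Acta2 was smaller only in the one with the block. The acinar mean itself differed between the groups, so such fits can remove part of the difference between genotypes. What part acinar content had in the differences of these genes was not tested.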

How the data were processed

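Each probe set of the Affymetrix Mouse430_2 arrays has 1 log2 signal per array, as deposited by the authors. The log base was taken from their range (array medians of 6.29 to 6.35, highest value 15.39). Per the labels' protocols, RNA was extracted with Trizol and 150 ng was labelled with a 3′ IVT Express kit. Background correction, summarisation and normalisation are not given in the sources used here. Of 45101 probe sets, 34945 named 1 gene, 932 several and 9160 none, and 64 control sets were left out. For 34741, the gene identifier gave the current RefSeq symbol (GRCm38.p6). Signals near background can understate differences, and no background level, detection calls or filter on dim genes were used.

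The contrast of mutant with control was fitted in limma (version 3.58.1, R 4.3.3) by lmFit and by eBayes with its trend option, two-sided, with genotype as the only term and Benjamini-Hochberg adjustment over 18193 genes. Each array is taken as 1 animal, since the series text counts 8 mice per group with controls matched by litter, and p-values measure the spread between these arrays. Deviations from group means correlated between same-numbered arrays in 8 of 8 pairs (0.237 to 0.735), which is taken as pairing and is not stated in the labels, and blocked values stand beside calls that they alter. Correlations were tested with SciPy 1.17.1 by exact, two-sided permutation over 40320 pairings. The members and lists were chosen with earlier results of these data known. Of the 13 lists, with 187 entries, 174 were measured. Named are all 10 genes, up to 6 called genes of each related list (or that with the lowest p), and the best-correlated genes. Of each marker list up to 4 called genes are named, with the 2 brightest of the pericyte and of the stellate and fibroblast lists. The plan also took the 2 brightest of the other marker lists, which are not reported here. Genes called only with the block, and Srf, Myocd, Myh9, Actg2, Acta1, Actc1 and Mylk2 to Mylk4 were named outside these rules, after their values were seen. The called gene of the light chain regulators is not reported here. On simulated data for this comparison with 18193 genes, 87 of 100 genes changed 1.5-fold and 97 of 100 changed 3-fold were recovered, and 7.5% of calls were false. Alternatives were other scalings, probe set rules, variance models, marker means as covariates, the block, and leaving out arrays.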

Additional observations from a re-analysis of the deposited data

How the results depend on the processing

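Mylk kept a difference between 1.98 and 2.08 when any 1 array was left out, and of the other 16 settings only the mean of its probe sets (1.34) moved it by more than the spread between arrays. The 9 other genes had 3 called, and 2 to 4 when any 1 array was left out. This count was 6 with the replicate block, 5 with the block and without replicates 1 to 3 of both groups (a setting chosen after seeing the data), and 0 with the block and the acinar mean (2 genes at an unadjusted p under 0.05 by limma). It was 0 with the stellate and fibroblast mean (4 at an unadjusted p under 0.05), 1 with the mean of Acta2, Tagln, Cnn1, Myh11 and Des, and 0 with that mean and the block (0 at an unadjusted p under 0.05). That mean holds 5 of the 9 genes, so those fits remove part of their own difference, and Myh11 turned to 0.27 in the blocked one (adjusted p = 0.52). Over all genes 1594 were called, and 1324 to 1645 when any 1 array was left out. The number was 3200 with the block, 852 with the block and the acinar mean, 938 with the smooth-muscle mean and 272 with that mean and the block, 680 with the stellate and fibroblast mean, and 828 without replicates 1 to 3 of both groups, where fewer arrays were used. Quantile normalisation, median centring, array weights, no variance trend, the immune-cell or acinar mean alone, and the probe set and dim-gene rules left both counts within 1.5 times, and 2 of the 9 genes dropped out under the dim-gene rule. The replicate block changed no call of the 10 genes other than those of Myl9, Tagln and Tpm2. Differences that changed sign while uncalled before and after were not treated as reversed. By Dixon's ratio at a critical value of 0.526, 0 of the 20 groups of 8 signals of these genes held an outlying array.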

Other observations

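The genes whose array-to-array deviations from the group means were most like those of Mylk, over 16 arrays and 18183 genes outside the set, were C87198, Scarb1, Csnk1a1, Robo4 and Nbl1 (Pearson r from 0.876 to 0.793). C87198 read 3.53 ± 0.15 (SD) in controls, far below the array medians. For the mean of Acta2, Tagln, Cnn1, Myh11 and Des they were Tmem38b, Fkbp11, Aass, Crhr1 and Alg5 (r from 0.878 to 0.865). These are the highest of a large number of values from arrays that share preparation and pair effects, and are given as a description. None of these 10 genes differed past the threshold between the groups by limma, with differences from −0.11 to 0.28, and at an unadjusted p under 0.05 the number was 1.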
